A study of Rattus norvegicus with 2 samples.

Results

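Expression of 8 genes of the renin-angiotensin system of the brain was examined in pooled hypothalamus RNA from males and from females of the spontaneously hypertensive rat (SHR), whose blood pressure climbs with age. The genes were Agt, Ace, Agtr1a, Atp6ap2, Lnpep, Enpep, Prcp and Thop1. They were chosen by name for their role, but with earlier results of these data known. Their probes were found by the RefSeq accession that each array spot carries. All 8 were matched, by 10 probes on 11 spots, out of 39500 genes and transcripts on 45591 probes. The male group was 1 RNA pool of 5 male SHR and the female group 1 RNA pool of 5 female SHR. All rats were 9 weeks old, each gave 100 ng of RNA, and each pool went onto 1 single-colour Agilent array. Both pools came from SHR, and no normotensive strain was compared. With 1 array per sex there is no replicate and no test, so every difference describes these 2 pools, which are called males and females below.

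In the renin-angiotensin system, angiotensinogen is cut to angiotensin I, and angiotensin-converting enzyme trims that to angiotensin II, which acts mainly through the type 1 receptor. Aminopeptidases and carboxypeptidases then turn angiotensin II into shorter peptides with receptors of their own. The brain holds its own set of these components. In the hypothalamus, angiotensin II is known for evoking thirst, vasopressin release and a rise in sympathetic drive.

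The scanner software flagged all 8 genes as well above background on both arrays and on every probe. Probes with this flag are called detected. Of all 39500 genes and transcripts, 24140 were detected on both arrays. None of the 8 was 2-fold or more apart between the pools, against 4.17% of 26109 genes and transcripts detected on at least 1 array. By direction, 2.54% were higher and 1.64% lower in males. On each gene's brightest probe, males had the higher signal for 2 genes and the lower for 6. Of the 24140 genes and transcripts that both arrays detected, 55% were lower in males. The median male minus female log2 difference of the 8 was -0.023, and that of all 24140 was -0.016. The technical SD comes from repeated spots of like signal on the same array. It ignores that spots are paired between the arrays, so it may be too wide for bright probes. The differences of Enpep, Prcp, Agtr1a and Atp6ap2 exceeded it, and 3 of these 4 genes were dim. Signals are given in scanner units with the background subtracted. Log2 signals are relative to the array's 75th percentile, which was 2203 units for males and 2254 units for females.

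Depth on an array is its signal over background. The male array detected 71.6% of 58717 rat transcript spots and the female array 73.0%, and the local background had a median of 33 units on each. Detection reached down to 15.1 units for males and 12.9 units for females. Of 12 hypothalamic markers, 11 were detected on both arrays, among them Avp, Oxt and Hcrt. Otp was so on the female array only. Of 12 markers of meningeal fibroblasts, all were higher in males, 8 of them at least 2-fold, with a median of 1.25. Of 8 pituitary markers, 6 were detected on at least 1 array, and 3 of these were at least 2-fold apart. Gh1 and Fshb were not detected on either array. Lhb, Pomc and Pou1f1 were at log2 differences of 0.35, 0.24 and -0.32. Tshb was 12.4-fold and Cga 4.08-fold higher in males, and Prl, detected in females only, was at least 7.91-fold lower in males. The part of meningeal or pituitary RNA in the values of the 8 genes was not tested.

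The sequences before the transcription start are shown for the 3 genes with the largest differences, Agtr1a, Enpep and Prcp. They come from RefSeq for assembly GRCr8, 250 bases before to 50 bases after the start, 5′ to 3′ on the gene's strand. Capitals mark a pair of motifs that were searched on both strands. The first, TATAAA, is the core promoter element that binds the general transcription machinery. The second, AGGTCA, is the half-site that oestrogen receptors and many other nuclear receptors recognise. The motifs share no overlap here.
Agtr1a: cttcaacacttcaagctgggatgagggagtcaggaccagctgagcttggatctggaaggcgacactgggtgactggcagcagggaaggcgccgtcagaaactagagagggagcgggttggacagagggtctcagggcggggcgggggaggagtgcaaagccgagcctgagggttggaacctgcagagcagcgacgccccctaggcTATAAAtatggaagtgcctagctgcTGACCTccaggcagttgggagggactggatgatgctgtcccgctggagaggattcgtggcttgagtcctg
Enpep: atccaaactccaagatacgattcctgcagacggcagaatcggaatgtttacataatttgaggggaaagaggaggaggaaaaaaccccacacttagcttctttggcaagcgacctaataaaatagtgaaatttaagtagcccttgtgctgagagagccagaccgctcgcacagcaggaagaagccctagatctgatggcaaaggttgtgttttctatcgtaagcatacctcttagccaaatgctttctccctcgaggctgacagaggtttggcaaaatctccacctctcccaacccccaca
Prcp: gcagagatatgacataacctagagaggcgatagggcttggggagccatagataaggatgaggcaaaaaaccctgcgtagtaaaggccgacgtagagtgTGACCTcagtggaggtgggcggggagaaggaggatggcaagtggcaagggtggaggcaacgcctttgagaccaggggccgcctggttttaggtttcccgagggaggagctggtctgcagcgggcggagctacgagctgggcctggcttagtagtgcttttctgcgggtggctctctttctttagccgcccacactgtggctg

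The windows lie at chr17:34435383-34435682 on the minus strand for Agtr1a, chr2:220526169-220526468 on the minus strand for Enpep and chr1:156343644-156343943 on the plus strand for Prcp. Agtr1a held TATAAA from base -45, and AGGTCA on the opposite strand from base -20. Prcp held AGGTCA on the opposite strand from base -152, and Enpep held neither motif. Of 33469 rat promoter windows, 14.2% held TATAAA and 16.2% held AGGTCA on either strand. Promoters were matched for 7 of the 8 genes. Among the other matched windows, Ace held TATAAA on the opposite strand from base -42, and those of Atp6ap2, Lnpep and Thop1 held neither motif. GC content was 72.3% for Ace, 70.7% for Lnpep, 61.7% for Thop1, 60.7% for Agtr1a, 60.0% for Atp6ap2, 58.3% for Prcp and 47.0% for Enpep, against a median of 51.7% over all windows. The windows of Ace, Lnpep, Atp6ap2 and Thop1 held 34, 33, 25 and 24 CG dinucleotides, against 13 for Prcp, 11 for Agtr1a and 8 for Enpep. The median over all windows was 7. The arrays measured RNA only, so these motifs and base contents are descriptions and were not tied to the differences.

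Agt encodes angiotensinogen, the precursor of all angiotensin peptides, which in the brain is made mainly by astrocytes. Its single spot had 57901 units in males, against 59708 units in females. These signals ranked it 139th and 133rd from the top of 45591 probes, at percentile 99.7 on both arrays. The log2 difference was -0.011, within the technical SD of 0.072 that repeat spots of bright probes gave for a difference on 1 spot. Its sign was positive, at 0.0074, with quantile normalization. All 12 astrocyte markers were detected on both arrays, and 10 were higher in males, with a median of 0.057 and a range from -0.11 to 0.34. With quantile normalization 8 were higher and 4 lower, and with median centring 7 and 5, around a median of 0.026. Gfap was at 0.34, Aqp4 at 0.27 and Aldh1l1 at 0.093. The summed level of the 12 markers was 72.2 times the 75th percentile in males and 68.3 times in females. Their part in the Agt value was not tested. In a pool of tissue RNA, fewer cells of a type and less RNA per cell cannot be told apart.

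The percentile of a probe within its array mixes the abundance of the transcript with how well the probe binds, so it does not order the 8 genes by abundance. It can be compared for the same probe between the pools. The brightest probes of Thop1 and Atp6ap2 lay at percentiles 90.9 and 90.8 on the male array, and at 90.9 and 91.4 on the female array. Those of Ace lay at 72.0 on both arrays and Lnpep at 62.3 on the male and 62.9 on the female array. Agtr1a was at percentile 51.5 on the male and 55.3 on the female array. Prcp was at 44.8 and Enpep at 44.4 on the male array, against 41.5 and 38.9 on the female array. The second Ace probe was at 55.2 on the male and 56.9 on the female array. Ranked only among detected probes, which differ between the arrays, the percentiles were 24.1 for males and 32.0 for females for Agtr1a, and 41.0 for males and 43.5 for females for Lnpep. Prcp was then at 13.6 in males and 11.0 in females, and Enpep at 13.0 in males and 6.97 in females.

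**Figure D1:**
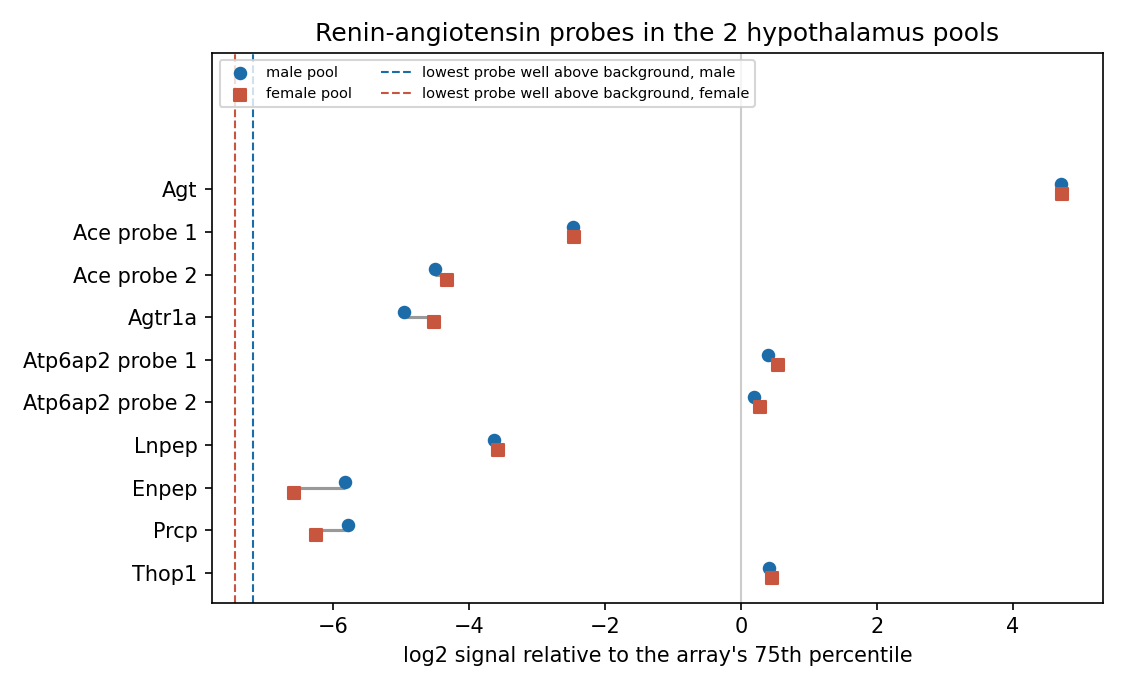
Log2 signal relative to the array's 75th percentile (x axis) of the 10 probes of the 8 genes (y axis), as a circle for the male pool and a square for the female pool, with 1 array each. Dashed lines mark the dimmest probe detected on each array. All probes lie right of these lines, and the visible gaps between pools are those of Agtr1a, Enpep and Prcp.

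Atp6ap2 encodes the prorenin receptor, which is also an accessory subunit of the vacuolar proton pump. Its brighter probe had 2908 units in males, against 3298 units in females, a log2 difference of -0.15 with a technical SD of 0.072. Its second probe had 2511 units in males, against 2751 units in females, a log2 difference of -0.099. Both probes were lower in males, by 2.04 and 1.36 technical SD. The intervals of 1 software error overlapped on the brighter probe, at 2617 to 3199 units in males and 2968 to 3628 units in females, and on the second probe too. The second spot was in a patch, which means that at least 2 close neighbours differed 2-fold in 1 direction. Of the 18 spots closest to it that belong to other probes and were detected, 6 had 2-fold or more signal in males, opposite to its own direction. Among the 4645 genes with a mean log2 signal above 0, the middle 90% of differences ran from -0.14 to 0.11, so the brighter probe lay just below that range. Over the alternatives of processing tried, the difference of Atp6ap2 lay between -0.18 and -0.12.

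Atp6ap2 is on the X chromosome. Of 381 X-linked genes that both arrays detected, 233 (61.2%) were lower in males, with a median over all 381 of -0.039. Over all 24140 genes and transcripts that both arrays detected, 55% were lower in males, with a median of -0.016. Agtr2, the X-linked gene of the type 2 angiotensin receptor, was not detected on either array, at 3.04 units in males and 2.58 units in females.

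Ace encodes angiotensin-converting enzyme, a peptidase of vascular endothelium and the choroid plexus. Its brighter probe had 397 units in males, against 410 units in females, a log2 difference of -0.014. Its second probe had 97.2 units in males, against 112 units in females, a log2 difference of -0.17. Both values were within their technical SD, of 0.13 and 0.25. Both arrays detected 11 of 12 endothelial markers, of which 7 were higher and 4 lower in males. Their median was 0.13 and their range from -0.44 to 0.70, with Cldn5 at 0.13, Pecam1 at -0.13 and Flt1 at 0.22. The median was 0.059 when each gene's probes were averaged, and 0.23, with 7 of 8 genes higher, without spots in patches. By sign, normexp, another background correction, gave 9 higher and 2 lower, and median centring 6 higher and 5 lower. Over all 12 the summed level was 8.93 times the 75th percentile in males and 8.35 times in females. Of 12 choroid plexus markers, 8 were detected on both arrays, 6 of them higher in males, with a median of 0.24 (0.097 with normexp) and a range from -0.20 to 0.67. Over all 12 the summed level was 1.49 in males and 1.32 in females. The markers Slc4a5, Cldn2 and Ly6c of these lists were not detected on either array, and Kl and Kcnj13 on 1 array only. Kcnj13, detected in males only, was at least 3.82-fold higher in males. Kl, detected in females only, was at least 1.14-fold lower in males. The part of these cell types in the Ace value was not tested.

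Agtr1a encodes the main type 1 angiotensin receptor of rodents, the receptor behind the pressor and thirst responses to angiotensin II. Its single spot had 71.1 units in males, against 98.7 units in females. The software's own error of the signal was 8.08 units for the male and 10.4 units for the female spot, so the intervals of 1 error, 63.0 to 79.2 units and 88.3 to 109 units, did not overlap. The raw medians of the spot were 105 units for males and 124 units for females, with 32 units of local background on each. The log2 difference was -0.44, 1.36-fold lower in males, at 1.79 technical SD (SD 0.25). Among 5850 genes with mean log2 signals of -6 to -4, the middle 90% of differences ran from -0.40 to 0.53. The spot was outside patches, with 0 of its 18 neighbours 2-fold apart. With normexp background correction, which models the background and adds an offset that shrinks log differences of dim spots, the difference was -0.16, and with the plain local background subtracted from the spot median, an alternative added once values were known, it was -0.29. It was below 0 under every alternative tried. With 1 probe outside patches, though, the averaging of probes and the filters could not change its value.

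Most neuronal markers were slightly lower in males, as were 55% of all genes and transcripts that both arrays detected. Of 12 markers, all of them detected on both arrays, 10 were lower and 2 higher, with a median of -0.057 (-0.088 with median centring) and a range from -0.15 to 0.18. Snap25 was at -0.15, Syt1 at 0.083 and Rbfox3 at -0.057. Their summed level was 40.6 times the 75th percentile in males and 42.7 times in females. All 12 oligodendrocyte markers and 10 of 12 microglia markers were higher in males, with medians of 0.10 and 0.085. The part of these cell types in the Agtr1a value was not tested. Agtr1b, the second type 1 receptor gene of rodents, was not detected on either array, at 9.28 units in males and 9.18 units in females. Mas1, which encodes a receptor of the angiotensin heptapeptide, was dim, at 22.2 units in males and 21.1 units in females. Its log2 difference was 0.11 with a technical SD of 0.43.

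Enpep encodes aminopeptidase A, which turns angiotensin II into angiotensin III, a main active peptide of the brain system. Its single spot had 38.7 units in males, against 23.6 units in females. With software errors of 5.16 and 3.75 units, the intervals of 1 error were 33.5 to 43.8 units in males and 19.9 to 27.3 units in females and did not overlap. The raw spot median was 79 units on the male array, with a local background of 35 units, and 65 units on the female array, with a local background of 34 units. The log2 difference was 0.75, or 1.68-fold higher in males, at 1.72 technical SD (SD 0.43). This was the largest difference of the 8 genes. Among 2414 genes with a mean log2 signal of -6 or lower, the middle 90% of differences ran from -0.47 to 0.57. Genes detected on 1 array only were left out of this range, so it may be too narrow near the detection limit. The spot was outside patches, with 0 of 18 neighbours 2-fold apart. With normexp the difference was 0.23, and from spot medians minus local background it was 0.55.

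In mice, Enpep is also known as a gene of pericytes, mural cells of brain vessels. Both arrays detected all 12 mural cell markers, of which 9 were higher and 3 lower in males, with a median of 0.052 and a range from -0.092 to 0.29. The lowest value was that of Anpep, which is also on the list of other renin-angiotensin genes. Median centring shifts every gene alike, to a median of -0.047 over all genes that both arrays detected. The counts of mural markers were then 6 and 6 and their median 0.021, so these counts depend on where 0 is set. Over the other alternatives the median of the mural markers lay between 0.030 and 0.093. Pdgfrb was at 0.23, Rgs5 at -0.032 and Abcc9 at 0.0036. Their summed level was 2.84 times the 75th percentile in males and 2.76 times in females. Of the meningeal fibroblast markers, Col1a1 was at 1.20, Col1a2 at 1.29 and Col3a1 at 1.21, and the range over all 12 was 0.11 to 1.82. Their summed level was 5.99 in males and 2.93 in females. The part of mural RNA in the Enpep value was not tested.

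Prcp encodes prolylcarboxypeptidase, which also makes the angiotensin heptapeptide and, in the hypothalamus, inactivates alpha-melanocyte-stimulating hormone. Its single spot had 40.2 units in males, against 29.5 units in females. The intervals of 1 software error were 34.5 to 45.9 units in males and 24.9 to 34.1 units in females, and they did not overlap. The raw spot medians were 73.5 and 63 units on the male and female arrays, over local backgrounds of 35 and 34 units. The log2 difference was 0.48, or 1.39-fold higher in males, just above its technical SD of 0.43 and within the middle 90% of genes of like signal. Its mean log2 signal of -6.02 lay just below the range limit of -6. In the next range, from -6 to -4, the technical SD was 0.25. With normexp it was 0.18. Like Enpep, it was above 0 under every alternative tried. Both genes have 1 probe outside patches, so the averaging of probes and the filters could not change their values.

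Lnpep encodes the insulin-regulated aminopeptidase, which binds angiotensin IV and cleaves vasopressin and oxytocin. Its single spot had 177 units in males, against 190 units in females. The log2 difference of -0.071 was within the technical SD of 0.13, and it changed sign, to 0.021 with normexp and 0.018 from spot medians minus local background. The spot was in a patch, where 3 of 18 neighbours had 2-fold or more signal in males. Thop1 encodes thimet oligopeptidase, which makes the heptapeptide from angiotensin I and degrades gonadotropin-releasing hormone. Its 2 spots had 2985 and 2904 units in males, against 3174 and 2990 units in females. In units both male spots were below both female spots. After scaling, the male spots, at log2 signals of 0.44 and 0.40, overlapped with the female spots, at 0.49 and 0.41. The mean log2 difference was -0.032, within the technical SD of 0.051, and it was below 0 under every alternative tried.

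**Figure D2:**
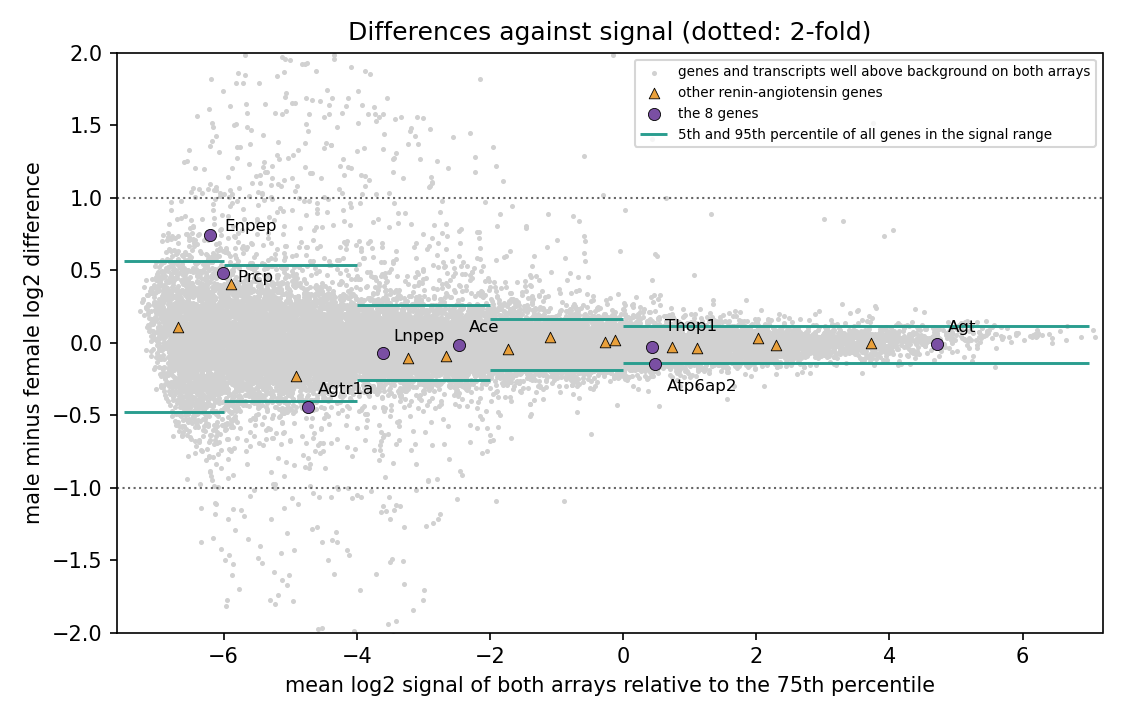
Male minus female log2 difference (y axis) against mean log2 signal of both arrays relative to the 75th percentile (x axis), for 24140 genes and transcripts (grey), the 8 genes (named circles) and 14 other renin-angiotensin genes (triangles), with 1 array per sex. Green lines mark the 5th and 95th percentile of these 24140 in 5 ranges of signal. Genes detected on 1 array only are left out, so the lowest range may be too narrow. The 143 genes beyond a difference of 2 in size are not drawn. Enpep lies above its range and Agtr1a and Atp6ap2 lie just below theirs.

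The rest of the pathway was read from a list of 24 further genes, of which 22 were matched and 14 were detected on both arrays. None of the 14 was 2-fold apart. By sign, 7 were higher and 7 lower in males, with a median of -0.0088 and a range from -0.23 to 0.40. This median was -0.039 with median centring, and 0.0024 when each gene's probes were averaged, so it has no settled sign. The other 8 matched genes were not detected on either array. They included the receptor genes Agtr1b, Agtr2 and Mrgprd, and the protease genes Cma1 and Ctsg, which can make angiotensin II in other tissues.

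Among the 14, the largest differences were those of Ece1 and Mme. Ece1, which encodes endothelin-converting enzyme, had 42.8 units in males, against 33.1 units in females, a log2 difference of 0.40 with a technical SD of 0.25. Mme encodes neprilysin, a peptidase that makes the angiotensin heptapeptide. It had 67.4 units in males, against 80.9 units in females, a log2 difference of -0.23 with a technical SD of 0.25. Its only spot was in a patch, where 3 of 18 neighbours had 2-fold or more signal in males. With each gene's probes averaged, Anpep, at 0.33, differed more than Mme. For Anpep, aminopeptidase N, which turns angiotensin III into angiotensin IV, the probes disagreed. Its brighter probe was at -0.092 with 337 units in males and 368 units in females. Its dim probe was detected on the male array only, with 24.8 units there, against 15.0 units in females. These signals gave a fold of 1.69 towards males, a log2 difference of 0.76 with a technical SD of 0.43.

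**Figure D3:**
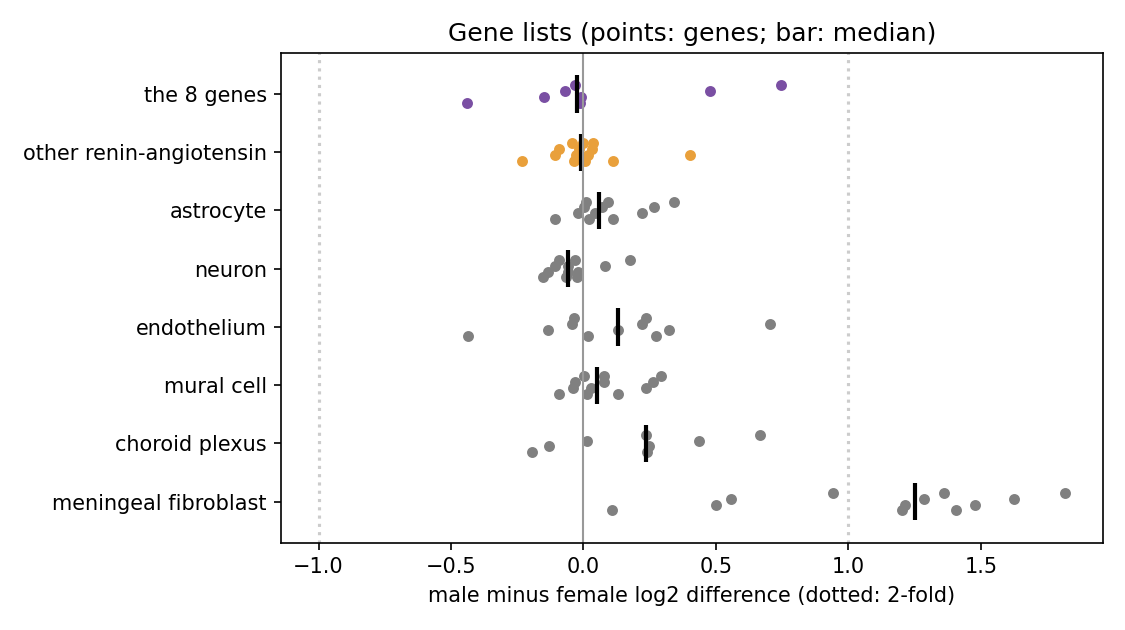
Male minus female log2 difference (x axis) of single genes detected on both arrays (points), by list (y axis), with the list's median as a bar and 1 array per sex. The 8 genes spread from -0.44 to 0.75 around a median of -0.023. The meningeal fibroblast markers lie between 0.11 and 1.82.

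**Figure D4:**
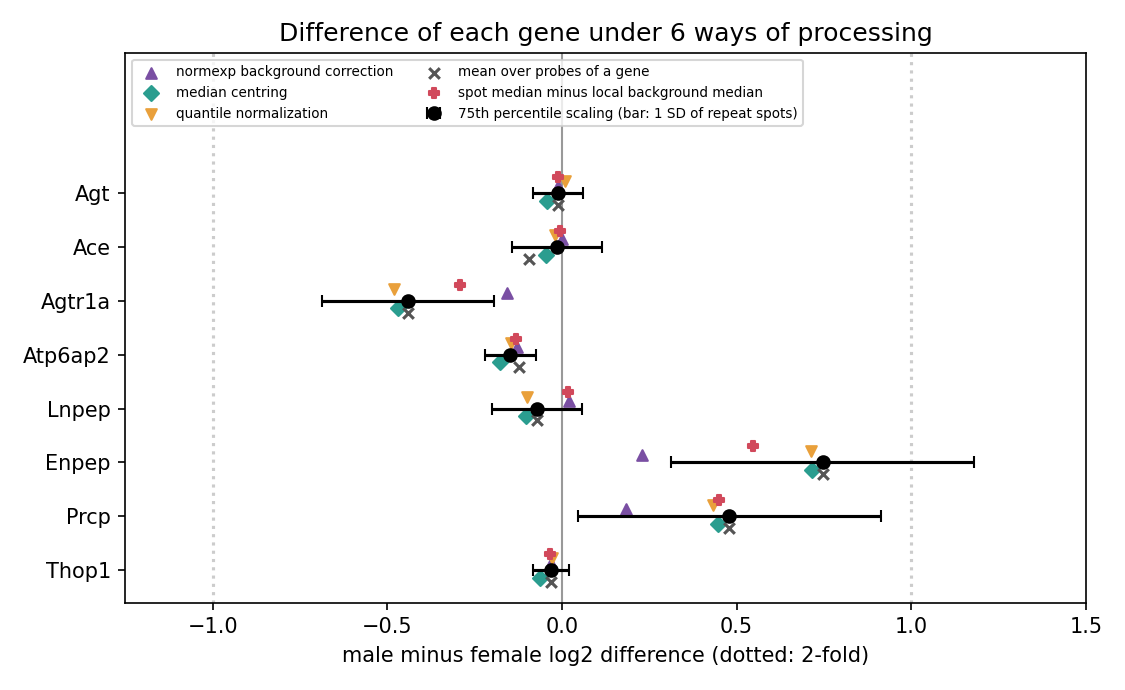
Male minus female log2 difference (x axis) of the 8 genes (y axis) under 6 ways of processing. The black point is the value on the brightest probe with 75th percentile scaling, with 1 technical SD of repeat spots as its bar. Ace, Agtr1a, Atp6ap2, Enpep, Prcp and Thop1 keep their direction throughout. Enpep spans 0.23 to 0.75 and Agtr1a -0.48 to -0.16.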

How the data were processed

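RNA of 2 hypothalamus pools was measured on 2 arrays of 1 slide. Per the file headers, the deposited processed signal is an intensity with the background subtracted by Feature Extraction 11.5.1.1, whereas the submitters' processing notes name version 9.1. The deposited series matrix, of unstated scaling, equalled the intensity divided by the array's 75th percentile times 100, with column medians of 28.0 (male) and 27.8 (female). The 664 spots that either array flagged as outliers were dropped; none was saturated. Log2 signals were set relative to the 75th percentile of rat transcript spots, and a probe's repeat spots were averaged. A probe was well above background when over 50% of its spots were, and a gene was read on its brightest probe. A dim side below the lowest such signal was raised to it, and the fold is then "at least".

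Accessions were named through RefSeq's table for GRCr8 (21106 of 45591 probes, 46.3%), used for names and chromosomes because the array design names another build. The technical SD came from repeat spots within arrays, by signal range; below a log2 signal of -6 it rested on 22 probes. It covers neither animals nor arrays. It adds the spread of both arrays as if independent, although spots at the same position are paired. The 10 spots of Ctsd, a bright pathway gene, gave differences from -0.068 to 0.043. The technical SD for 1 bright spot was 0.072, so it may be too wide for bright probes. A spot was in a patch when at least 2 of its 18 nearest measured spots of other probes were 2-fold apart in 1 direction; 9.51% of spots were. Normexp (limma 3.58.1 in R 4.3.3, offset 50) ran on spot and background medians, in place of the spot means first planned. Spot averaging and difference steps, in Python 3.11.15, were tested on simulated log2 signals, and the scaling step was not. The members, lists and rules were chosen with earlier results of these data known. The text names every member probe, Agtr1b, Agtr2 and Mas1, the 2 other pathway genes with the largest differences, and the up to the first 3 detected members of each marker list it uses. The genes Anpep, Ctsd, Mrgprd, Cma1, Ctsg, Otp, Tshb, Cga and Prl, and the list members named as dim, fall outside this rule. So do Lhb, Pou1f1, Kl and Kcnj13. All of these were chosen after their values were seen. No member of the oligodendrocyte and microglia lists is named. A further 2 pathway genes are not reported here. With 2 arrays no likeness of pattern between genes could be ranked.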

Additional observations from a re-analysis of the deposited data

How the results depend on the processing

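The count of members at least 2-fold apart stayed at 0 under normexp, median centring, quantile normalization, the deposited matrix values, the mean over probes, both filters on dim probes, spots outside patches (7 members, since Lnpep has none) and spot medians minus local background, a choice made after seeing the data. The median difference of the members lay between -0.054 and -0.0065 in these. The count of other pathway genes 2-fold apart was 2 without a filter on dim probes, where Cma1 and Mrgprd, not well above background on either array, entered; it was 0 otherwise. The median percentile of the members on the male array was 67.1, and 48.6 when ranked only among probes well above background, since that leaves out the dim probes below them. Differences of single members moved by more than their technical SD in 2 of 71 values, Agtr1a (-0.16) and Enpep (0.23) with normexp. Its offset shrinks differences of dim genes by construction. Many of the 71 values could not move. For 1 probe detected on both arrays and outside patches, averaging probes and the filters return the same value. The deposited matrix holds the same signal. Sign changed for Agt (0.0074 with quantile normalization), Lnpep (0.021 with normexp, 0.018 from spot medians) and the median of the other pathway genes (0.0024 with probes averaged). No paired analysis was possible because each sex has 1 pool. Signal over background limits Enpep and Prcp most, and the number of arrays limits every value.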
